A study of Mus musculus with 42 samples.

Results

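The genes described here are 10 components of interleukin-6 family signalling through gp130 and STAT3, measured in skin around wounds of diabetic mice and in untreated skin. They are the ligands Il6, Osm and Lif, the receptor chains Il6st and Osmr, the transcription factor Stat3, the feedback inhibitors Socs3 and Socs1, and the induced genes Pim1 and Bcl3. Members were chosen by gene symbol, and each had 1 probe set among the 17928 probe sets that carry a single symbol, of 20672 in all. The 42 Affymetrix Mouse430V2 arrays fall into 9 groups. The wounded animals were db/db females 10 to 12 weeks old, which lack a functional leptin receptor, and their strain is C57BL/6 in the labels and BKS.Cg-Dock7m Leprdb/+ +/J in the methods. A 6 mm wound was treated topically. At 24 h, after 1 dose on day 0, there were 4 control arrays and 5 each for IL-22-Fc, VEGF and PDGF. At day 7, after doses on days 0, 2, 4 and 6, there were 5 arrays each for control, IL-22-Fc and VEGF and 3 for PDGF. The control protein was an anti-ragweed antibody according to the labels and a control Fc according to the methods. The labels give 20 µg for VEGF, 50 µg for PDGF and 50 µg for IL-22-Fc at 24 h. They give no dose for IL-22-Fc at day 7 or for the control protein. The design text has 20 µg for IL-22-Fc and 50 µg for the control protein, each at both times. The methods give 50 µg for every protein. Untreated skin gave the remaining 5 arrays, and no genotype is stated for it. The labels number no arrays, so the replicate numbers used below only name the arrays of a group and pair none. IL-22-Fc is interleukin-22 fused to an antibody Fc part, VEGF is a growth factor for blood vessels and PDGF one for fibroblasts and other mesenchymal cells.

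Interleukin-6, oncostatin M and leukaemia inhibitory factor each bind a receptor complex that contains gp130, the product of Il6st, and oncostatin M also uses the chain encoded by Osmr. JAK kinases bound to these chains phosphorylate STAT3, which enters the nucleus as a dimer and induces, among other genes, Socs3, whose protein binds gp130 and shuts the signal off. The IL-22 receptor also activates STAT3 but contains no gp130, and in skin it is found mainly on keratinocytes. The arrays measured mRNA, so phosphorylation of STAT3 was not measured. In whole skin, fewer cells of a type and less mRNA per cell cannot be told apart. All levels below are log2 intensities of 1 probe set, all differences are on the log2 scale, and no level is compared between genes.

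The bases before the transcription start of the members show where letters known from STAT and NF-κB sites occur among them. RefSeq sequence of GRCm38.p6 was at hand for 9 members, all but Osm, and the 250 bases before each annotated start were searched on both strands. The STAT pattern TTCNNNGAA was found in Socs3 and in no other member, and 7.02% of 32851 promoters hold it. The related pattern with 4 bases between TTC and GAA, held by 5.85% of promoters, was found in none of the 9. The NF-κB pattern GGGA, any base, TT, any base, CC was found in Il6 alone and is held by 0.98% of promoters. The 29 bases around the Socs3 match (chr11:117969502-117969530, minus strand, match from 154 to 146 bases before the start, in capitals) are shown because Socs3 is the feedback gene of the pathway. They lie inside the RefSeq span of the gene (chromosome 11, 117966079 to 117970336), upstream of the start used.
Socs3: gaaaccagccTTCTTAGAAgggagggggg
The 250 bases before Il6 (chr5:30012864-30013113, plus strand, match from 44 to 35 bases before the start, in capitals) are shown because Il6 had the widest range of group means of the 10 genes.
Il6: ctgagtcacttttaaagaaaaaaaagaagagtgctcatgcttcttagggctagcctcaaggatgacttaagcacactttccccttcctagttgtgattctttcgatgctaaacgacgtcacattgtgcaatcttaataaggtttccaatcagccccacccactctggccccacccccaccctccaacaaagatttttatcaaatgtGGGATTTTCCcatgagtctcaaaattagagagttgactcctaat
A match is a description of the letters in the window. No binding was measured.

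One array has to be named before the results. In the VEGF group at day 7, replicate 1 had an Il6 level of 11.91, while the other 4 arrays lay between 4.94 and 5.83. Its Socs3 level was 11.46 against 8.49 to 9.27, its Lif level 7.38 against 5.20 to 5.41, its Osm level 8.01 against 5.48 to 6.34, and its Osmr level 10.58 against 9.17 to 9.36. All 10 genes were above the mean of the other 4 arrays, by 0.27 for Il6st up to 6.55 for Il6, and only Socs1, at 5.77, lay within their range. Over the whole table this array exceeded the others at least 2-fold at 213 probe sets (1.03%) and was at least 2-fold below them at 22 (0.106%). Its smallest Pearson r with another VEGF array at day 7 was 0.986, and the smallest among the other 4 was 0.991. Of 10 marker lists 5 had a mean level in it outside the range of the other 4 arrays. In a group this small any array is often the highest or lowest, so this count does not by itself set the array apart. The mean level in replicate 1 was 7.79 against 7.05 to 7.51 for neutrophils, 8.98 against 8.58 to 8.88 for basal keratinocytes and 7.80 against 7.37 to 7.68 for endothelial cells. It was below them for suprabasal keratinocytes (11.28 against 11.47 to 11.74) and T cells (5.33 against 5.37 to 5.57), and the part of these cells in its levels was not tested. The array enters the estimate of spread for every gene in each fit that holds the day 7 arrays, so calls among the 10 genes are given without it wherever their number changed. The labels say nothing that sets it apart, and the fits without it were added after its values had been seen.

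**Figure D1:**
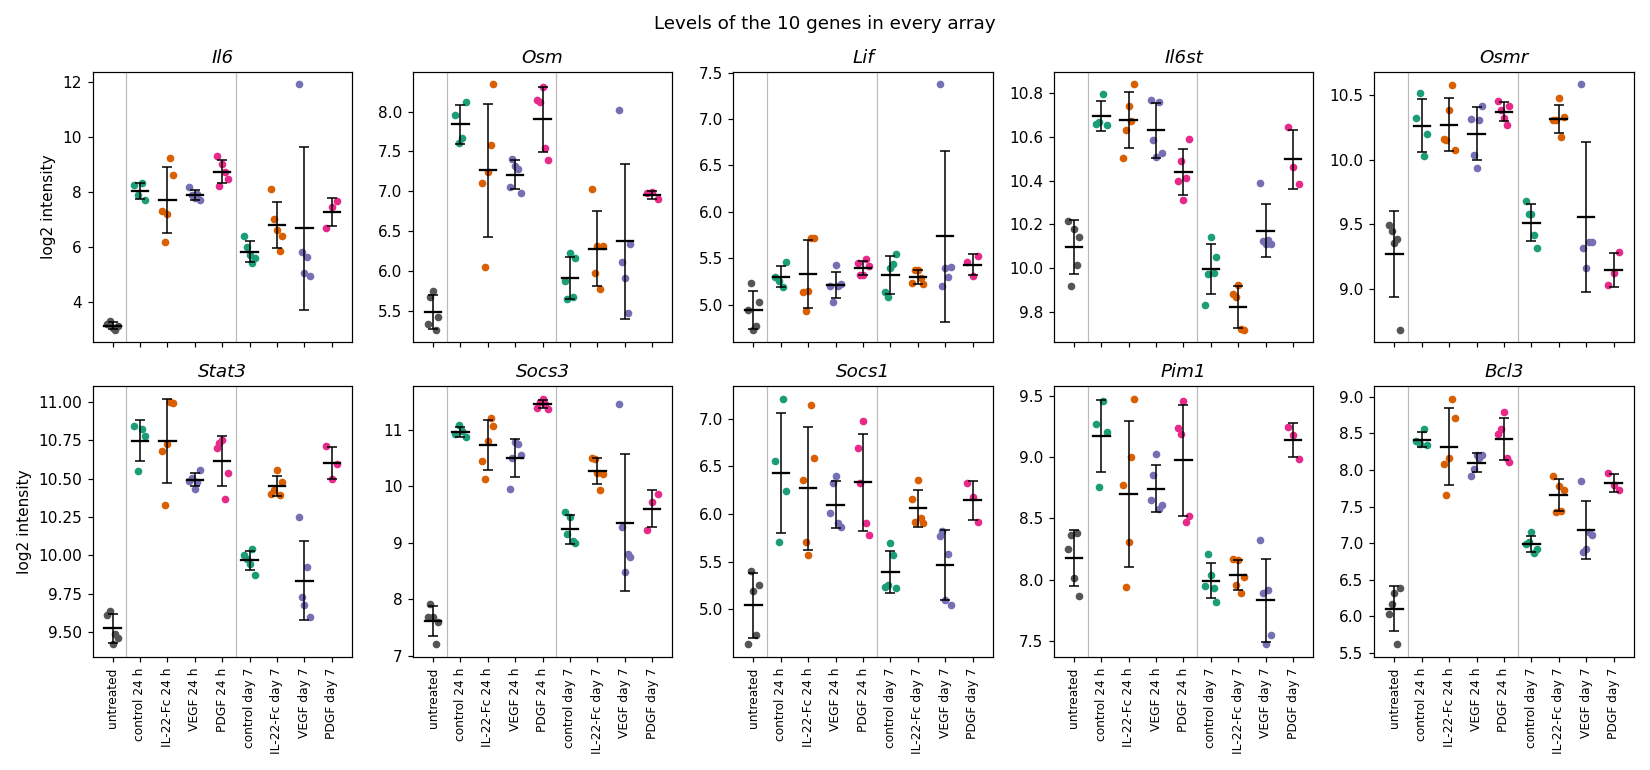
Log2 intensity of each of the 10 genes (one panel each, own y axis) in every array of the 9 groups on the x axis, with the group mean as a horizontal bar and the SD as a vertical bar. Il6 lay between 2.98 and 3.30 in untreated skin and between 7.71 and 8.32 in control wounds at 24 h, and one VEGF array at day 7 stands at 11.91.

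Control wounds at 24 h were set against untreated skin to see which components differ between wounded and untreated skin. Of the 10 genes 9 rose, all but Lif, where 39.5% of all probe sets were called and 19.3% were called higher. A call is an adjusted p under 0.05 in limma. Il6, the ligand that gives the family its name, was at 3.18, 3.30, 3.05, 2.98 and 3.12 in untreated skin and at 8.23, 7.89, 8.32 and 7.71 in the 24 h control wounds. The groups were far apart, and the fitted difference was 4.91 (SE 0.75, adjusted p = 1.66e-06). Y-linked probe sets, which have no transcript in female mice, reached 3.78, and Il6 was below the highest of 3 of them on the same array in 4 of the 5 untreated arrays. The untreated level is thus not above background. With each untreated array set to the higher of its Il6 and its highest Y-linked level (mean 3.34), Il6 was at least 25.9-fold higher at 24 h.

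Osm, made mainly by leukocytes, was at 5.34, 5.68, 5.75, 5.27 and 5.43 in untreated skin and at 7.95, 7.61, 7.67 and 8.12 in 24 h control wounds, a difference of 2.34 (SE 0.33, adjusted p = 4.2e-07). Lif was at 4.94 ± 0.20 (SD, n = 5) and 5.30 ± 0.11 (SD, n = 4), a difference of 0.36 that was not called (adjusted p = 0.228). It was called without the VEGF array that stands apart, at the same difference (adjusted p = 0.0165). Of the ligands, Il6 and Osm therefore passed in both fits and Lif only in the smaller one.

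Both receptor chains rose at 24 h. Il6st, the shared chain, was higher by 0.60 (SE 0.08, adjusted p = 2.26e-07) and Osmr by 0.99 (SE 0.17, adjusted p = 2.02e-05). Stat3 was at 9.61, 9.64, 9.42, 9.49 and 9.46 in untreated skin and at 10.85, 10.55, 10.82 and 10.78 at 24 h, a difference of 1.23 (SE 0.11, adjusted p = 1.93e-11). No untreated array reached any of the 24 h arrays. Overlap between groups is described here and below for single genes and was not counted over all probe sets.

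The feedback inhibitors and the induced genes rose as well. Socs3 was at 7.68, 7.91, 7.68, 7.20 and 7.60 in untreated skin and at 10.92, 11.07, 10.98 and 10.86 at 24 h, which is 10.2-fold higher (log2 difference 3.34, SE 0.32, adjusted p = 1.05e-10). Socs1, an inhibitor of JAK kinases better known from interferon signalling, was higher by 1.39 (SE 0.26, adjusted p = 5.17e-05). The difference was 2.31 for Bcl3 (SE 0.19, adjusted p = 2.8e-12), an atypical IκB protein that binds NF-κB subunits in the nucleus. Pim1, a serine/threonine kinase that favours survival, was higher by 0.99 (SE 0.21, adjusted p = 0.000207).

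By day 7 most of these levels had come down. Compared with 24 h, 9 of the 10 genes were lower in control wounds at day 7, again all but Lif, where 30.1% of all probe sets were called and 16.0% were called lower. Il6 was lower by 2.22 on the log2 scale (SE 0.75, adjusted p = 0.021), and this call was lost without control replicate 3 at 24 h (adjusted p = 0.0548). Its day 7 levels were 6.40, 5.98, 5.71, 5.40 and 5.61. Osm fell by 1.92, Socs3 by 1.72, Bcl3 by 1.42, Pim1 by 1.18, Socs1 by 1.03, Stat3 by 0.78, Osmr by 0.75 and Il6st by 0.70, with adjusted p at or below 0.00229. The difference for Lif was 0.02 (95% interval -0.46 to 0.49).

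Against untreated skin, 4 of the 10 genes were still higher at day 7, where 36.8% of all probe sets were called and 18.2% higher. They were Il6 (2.70, adjusted p = 0.00238, at least 5.58-fold over the same mean floor of 3.34), Socs3 (1.62, adjusted p = 3.48e-05), Bcl3 (0.89, adjusted p = 0.000113) and Stat3 (0.44, adjusted p = 0.0006). Lif joined them without the VEGF array that stands apart (0.38, adjusted p = 0.00844). Il6st and Pim1 differed from untreated skin by -0.10 and -0.18, and Osm, Osmr and Socs1 by 0.42, 0.24 and 0.35, all uncalled.

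**Figure D2:**
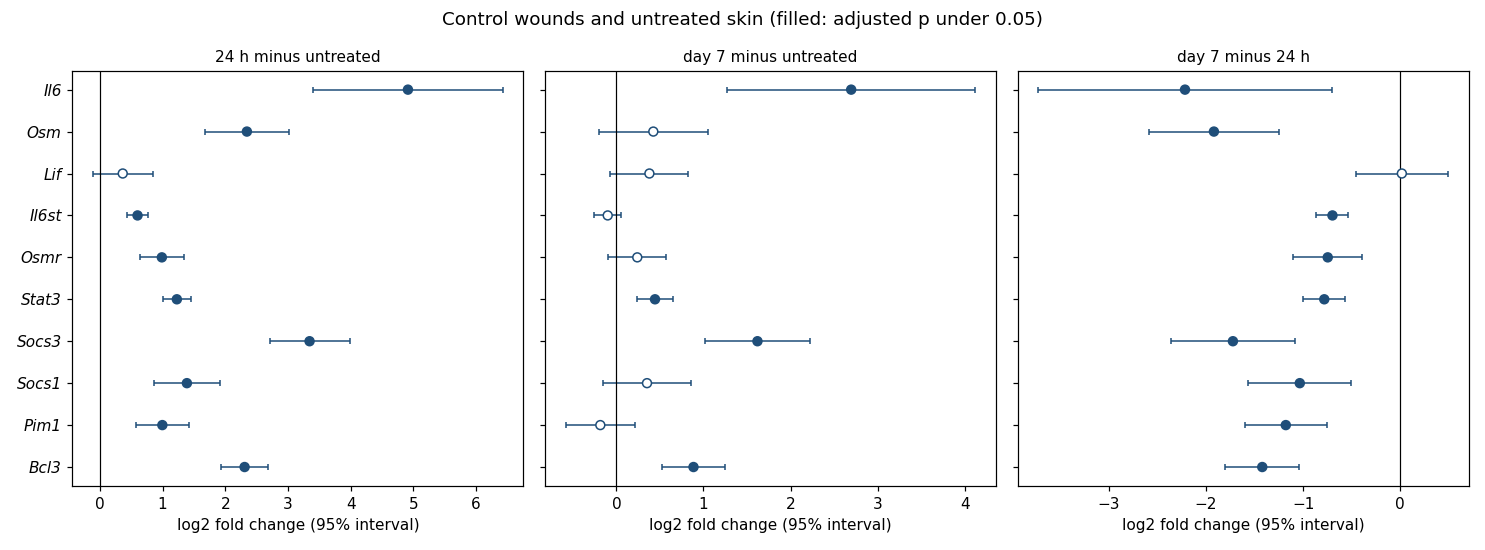
Log2 fold change of each gene with its 95% interval in control wounds at 24 h and day 7 against untreated skin and at day 7 against 24 h (one panel each, own x axis), where filled circles mark an adjusted p under 0.05. At 24 h 9 genes were higher than in untreated skin, at day 7 4 were, and 9 were lower at day 7 than at 24 h.

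The neutrophil markers moved with these changes. Their mean level over 9 measured genes was 5.44 in untreated skin, 8.04 in control wounds at 24 h and 7.40 at day 7, and for 10 monocyte and macrophage markers it was 8.31, 10.18 and 10.08. The untreated arrays ranged from 7.65 to 9.70 in the latter list. Other lists moved as well. In the same order, 7 suprabasal keratinocyte markers had means of 11.74, 10.89 and 12.18, 7 fibroblast markers 9.55, 9.28 and 10.86, and 6 adipocyte markers 10.48, 9.21 and 8.90. All 7 suprabasal and all 6 adipocyte markers were called lower at 24 h than in untreated skin. The part of these cells in the levels of the 10 genes was not tested. The 5′ probe set of Gapdh, a sign of RNA quality that also depends on expression of Gapdh, ran from 11.14 to 12.92 in untreated skin. It was higher by 0.51 in control wounds at day 7 (exact permutation p = 0.0397) and by 0.18 at 24 h (exact permutation p = 0.754). The titles of the untreated arrays are numbered in another series than those of the wound arrays, so wounding is not their only recorded difference.

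Outside the 10 genes the pathway lists moved in the same comparison as follows. All 9 measured NF-κB and IκB genes were higher at 24 h than in untreated skin, with Nfkbid at 2.73, Nfkbie at 2.13, Nfkb2 at 1.16 and Relb at 1.06. All 5 measured STAT genes were higher, among them Stat2 at 1.73, Stat4 at 1.24, Stat5a at 1.19 and Stat6 at 0.58. Of 4 JAK kinases 3 were higher, with Jak2 at 1.07, Jak3 at 0.91 and Tyk2 at 0.53, and Jak1, at 0.05, was not called. Of 30 genes listed as STAT3-induced 22 were higher and none was lower, led by Saa3 at 5.45, an acute phase protein, and Timp1 at 4.48, a protease inhibitor, while Fgl1 and Fgg were at 0.03 and 0.01.

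Receptor chains and gp130 ligands outside the members did not move one way. Of 13 receptor chains 4 were higher and 3 lower at 24 h. Csf3r, the G-CSF receptor of neutrophils, was higher by 3.78 and Il10ra by 2.17, while Il22ra1, the specific chain of the IL-22 receptor, was at -0.81. Of 7 further cytokines Clcf1 (2.10) and Ebi3 (1.09) were higher and Ctf1 (-0.52) and leptin, Lep (-1.31), lower. Among the other SOCS genes Socs5 (0.58) and Socs2 (0.42) were higher, and Socs6 (-0.78) and Socs7 (-0.30) lower.

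The central comparison asks whether IL-22-Fc, given repeatedly, changes this signalling in day 7 wounds. Stat3, Socs1, Osmr and Bcl3 rose with IL-22-Fc, which is 4 of the 10 genes against 5.45% of all probe sets called and 2.81% called higher. None of the 10 was called lower. The median difference over the 10 was 0.58, and over all probe sets it was 0.00.

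Osmr, the oncostatin M receptor chain, was at 9.68, 9.58, 9.58, 9.42 and 9.32 in control wounds and at 10.30, 10.30, 10.47, 10.17 and 10.32 with IL-22-Fc. Every treated array was above every control array, and the difference was 0.80 (SE 0.18, adjusted p = 0.0105). The IL-22-Fc level at day 7 overlapped all 24 h groups, whose means ran from 10.20 to 10.37. Il6st, the partner chain, was at 9.88, 9.87, 9.92, 9.72 and 9.72 with IL-22-Fc and at 9.83, 9.97, 10.14, 9.98 and 10.05 in control wounds, a difference of -0.17 that was not called (adjusted p = 0.261).

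Stat3 was at 10.003, 9.98, 9.94, 10.04 and 9.87 in control wounds and at 10.40, 10.43, 10.56, 10.40 and 10.48 with IL-22-Fc. The groups did not overlap, and the difference of 0.49 (SE 0.10, adjusted p = 0.00397) is 1.40-fold. Bcl3 was at 6.99, 7.01, 7.16, 6.87 and 6.93 in control wounds and at 7.91, 7.43, 7.78, 7.45 and 7.72 with IL-22-Fc, again without overlap (0.67, SE 0.14, adjusted p = 0.00715). Pim1, the other induced gene, was at 7.99 ± 0.14 and 8.04 ± 0.12 (SD, n = 5 each), with a difference of 0.05 and a 95% interval from -0.21 to 0.31.

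The feedback inhibitors Socs1 and Socs3 had every treated array above every control array, and with all arrays in the fit only Socs1 passed. Socs1 was at 5.23, 5.25, 5.69, 5.57 and 5.22 in control wounds and at 6.16, 5.91, 6.36, 5.95 and 5.90 with IL-22-Fc, higher in every treated array (0.66, SE 0.15, adjusted p = 0.0104). Socs3 was at 9.55, 9.15, 9.46, 9.02 and 8.99 in control wounds and at 10.50, 10.47, 10.24, 9.92 and 10.21 with IL-22-Fc. These groups did not overlap either, and the difference of 1.03 (2.05-fold) had an SE of 0.37 and an adjusted p = 0.116. Without the VEGF array that stands apart the difference was the same, the SE was 0.16 and the adjusted p was 0.000214. It was also called in a fit of the 5 control and 5 IL-22-Fc arrays alone (adjusted p = 0.000274) and in one over all 42 arrays (adjusted p = 0.0378). Without that array 5 of the 10 genes were called, the first 4 and Socs3, against 5.98% of all probe sets.

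The ligands were not called. Il6 was at 8.09, 7.03, 6.60, 5.83 and 6.40 with IL-22-Fc, overlapping the control wounds, and the difference of 0.97 had a 95% interval from -0.88 to 2.82, or from 0.32 to 1.62 without the VEGF array (adjusted p = 0.0756). For Osm the difference was 0.36 (95% interval -0.30 to 1.03) and for Lif -0.02 (-0.59 to 0.55).

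**Figure D3:**
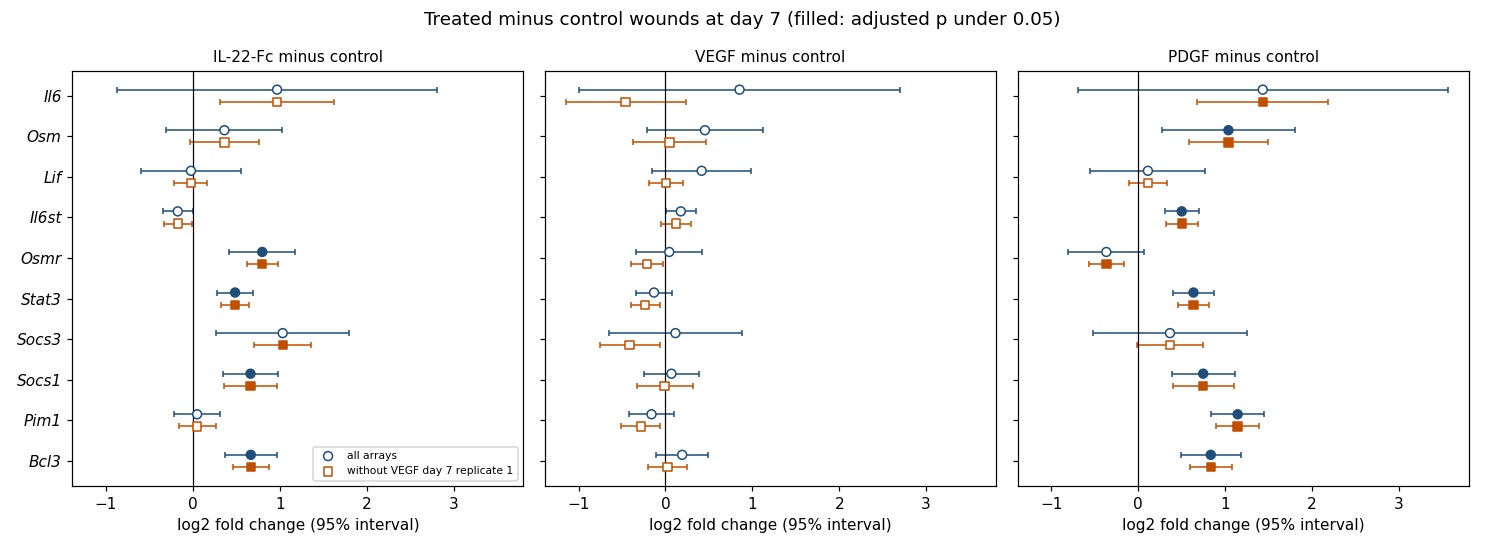
Log2 fold change with its 95% interval for each of the 10 genes at day 7, for IL-22-Fc, VEGF and PDGF against control (one panel each), with all arrays (circles) and without VEGF day 7 replicate 1 (squares), filled where the adjusted p was under 0.05. Socs3 with IL-22-Fc stays at 1.03 while its interval narrows, and PDGF has filled symbols at Pim1, Il6st and Osm where IL-22-Fc has none.

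Markers of other cells moved in the same comparison. Of 9 neutrophil markers 3 were higher with IL-22-Fc at day 7, Cxcr2 by 1.45, S100a9 by 1.32 and S100a8 by 0.80, the last pair being also made by keratinocytes. The summed linear level of all 9 was 13712 to 24643 in control wounds and 40849 to 43630 with IL-22-Fc. Such a sum gives most weight to the most abundant genes. The mean log2 level of the 9 was 7.40 and 7.82. The granule genes Elane, Ltf, Camp and Ngp differed by -0.17 to -0.05, uncalled. Of 7 suprabasal keratinocyte markers 4 were lower, and their mean level was 11.25 against 12.18. Mast cell and adipocyte markers were lower as well. Of 7 mast cell markers 5 were called lower, with a mean level of 7.99 to 8.27 with IL-22-Fc and 8.31 to 8.67 in control wounds, and of 6 adipocyte markers 2, with 8.09 to 8.60 against 8.66 to 9.16. The part of these cells in the differences of the 10 genes was not tested. The 5′ probe set of Gapdh was higher with IL-22-Fc by 0.23 (exact permutation p = 0.0159) and that of Actb differed by -0.09 (exact permutation p = 0.5). With the 5′ level as a covariate the same 4 genes were called, against 4.63% of all probe sets.

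Around the members, few genes were called with IL-22-Fc at day 7, read against 2.81% of all probe sets called higher. The NF-κB and IκB list held the most. Of 9 NF-κB and IκB genes 3 were higher, Rel by 1.53, Nfkbiz by 0.99 and Nfkbid by 0.55, while Rela and Nfkbib were at 0.02 and 0.03. Of 30 STAT3-induced genes 2 were higher, Lcn2 by 1.86, an iron-sequestering antimicrobial protein, and Junb by 0.83, with a list median of 0.19. Stat4 was the only further STAT gene called (0.66), and none of 4 JAK kinases, 6 other SOCS genes, 13 other receptor chains or 9 other negative regulators was called in either direction. Of 7 further cytokines Lep was lower (-0.81) and none was higher. Without the VEGF array that stands apart the counts were 4 of 9 for NF-κB genes, 3 of 30 for STAT3-induced genes and 1 of 2, in place of 0, for the other PIM kinases.

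With VEGF at day 7 none of the 10 genes was called, where 14.7% of all probe sets were. At an unadjusted p under 0.05 there was 1, Il6st (0.18), and the unmoderated t statistic, which uses each gene's own spread in the 2 groups compared, called 0. Counts at an unadjusted p and with this t statistic are given, here and below, without the share of all probe sets. The 95% intervals ran from -0.34 to 0.07 for Stat3, from -0.65 to 0.88 for Socs3, from -0.33 to 0.42 for Osmr and from -0.99 to 2.70 for Il6. Without replicate 1 the count stayed at 0, and the estimates for Il6, Socs3, Osmr and Stat3 were -0.46, -0.41, -0.21 and -0.23 (adjusted p from 0.0563 to 0.43). The signs of Il6, Socs3 and Osmr therefore depended on that array.

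Genes around the members did change with VEGF. Of 13 receptor chains 5 were lower, Il22ra2 by 1.04, Il22ra1 by 0.97, Il20rb by 0.78, Lepr by 0.67 and Il20ra by 0.50 on the log2 scale, and none was higher. Il22ra1, Il20rb and Il20ra are epithelial receptor chains of the IL-20 subfamily, and Il22ra2 encodes a soluble protein that binds IL-22. Of 7 basal keratinocyte markers 6 were lower in the same comparison, with mean levels of 8.78 with VEGF and 9.47 in control wounds, and their part in these receptor levels was not tested. Socs2 (0.68) and Socs5 (0.25) were higher, although without replicate 1 only 1 of the 6 SOCS genes was called. Of 30 STAT3-induced genes 3 were higher and 3 lower, or 2 and 6 without replicate 1, where 14.7% and 14.4% of all probe sets were called. Endothelial markers were higher (6 of 7, with 1 lower, mean 7.57 against 6.41) and suprabasal keratinocyte (6 of 7) and adipocyte markers (5 of 6) lower. The 5′ probe set of Actb was higher with VEGF by 0.31 (exact permutation p = 0.00794).

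With PDGF at day 7 6 of the 10 genes rose, where 34.9% of all probe sets were called and 18.9% were called higher. Pim1 was at 9.25, 9.18 and 8.98 with PDGF and at 7.95, 8.21, 8.04, 7.93 and 7.82 in control wounds. The gap between the groups was wide, and the difference of 1.15 (SE 0.15, adjusted p = 2.88e-06) is 2.21-fold. Stat3, at 10.71, 10.50 and 10.60, was higher by 0.64 (SE 0.11, adjusted p = 0.000142), Bcl3 by 0.84 (SE 0.17, adjusted p = 0.000438) and Socs1 by 0.75 (SE 0.17, adjusted p = 0.00184).

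Among ligands and receptors, Il6st was at 10.65, 10.46 and 10.39 with PDGF and at 9.83, 9.97, 10.14, 9.98 and 10.05 in control wounds (0.50, SE 0.09, adjusted p = 0.000254). No array of either group reached the other. Osm was at 6.98, 6.99 and 6.90 against 5.87, 5.65, 6.22, 5.68 and 6.16, a difference of 1.04 with an adjusted p = 0.0329. This call for Osm was lost when any PDGF array or control replicate 1, 2 or 4 at day 7 was left out, with adjusted p up to 0.0893 and the difference between 0.97 and 1.12.

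Osmr, in contrast to its rise with IL-22-Fc, was at 9.04, 9.12 and 9.29 with PDGF, each below all control arrays, a difference of -0.37 that was not called with all arrays (adjusted p = 0.197) and was called lower without the VEGF array that stands apart (adjusted p = 0.00583). Il6, at 6.67, 7.45 and 7.65 with PDGF, was likewise above all control arrays, with a difference of 1.43 that passed only without that array (adjusted p = 0.309 and 0.00352). Socs3 differed by 0.37 (95% interval -0.52 to 1.25) and Lif by 0.11 (-0.55 to 0.77). Without the VEGF array 8 of the 10 genes were called, 7 higher and 1 lower, against 35.4% of all probe sets.

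The PDGF arrays at day 7 also differed in control probe sets. The 5′ probe set of Gapdh was at 11.48 against 12.90 in control wounds and the Actb one lower by 0.63 (exact permutation p = 0.0179 for both, the smallest that 3 against 5 arrays allow). With the 5′ level as a covariate none of the 10 genes was called for PDGF against control. The estimates were then 1.51 for Pim1, 0.66 for Stat3, 0.58 for Il6st, 1.09 for Bcl3 and 1.11 for Socs1, with adjusted p from 0.107 to 0.398, and 0.885% of all probe sets were called. The median SE over all probe sets went from 0.12 to 0.36 in that fit. No 3′ level was set beside these 5′ levels, so RNA quality and expression of Gapdh and Actb were not separated. Neither can be told apart from PDGF treatment at day 7 in these arrays.

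Markers of other cells also moved with PDGF at day 7. Of 10 monocyte and macrophage markers 4 were higher and 1 lower, with Cd163 at 1.70 and Cd68 at 1.08, and their mean level was 10.35 to 10.47 with PDGF and 9.96 to 10.19 in control wounds. Of 7 suprabasal keratinocyte markers 4 were lower (mean 11.43 against 12.18), as were 4 of 7 mast cell markers (7.94 against 8.57) and 5 of 6 adipocyte markers (8.12 against 8.90). Of 7 fibroblast markers 4 were lower and 2 higher (10.28 against 10.86). The part of these cells in the differences of the 10 genes was not tested.

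Of the surrounding lists with PDGF at day 7, 6 of 9 NF-κB and IκB genes were higher, with Nfkbid at 1.31, Nfkb2 at 0.73, Rela at 0.51 and Nfkbib at 0.47. Rel, which led that list with IL-22-Fc, was at 0.08. Of the JAK kinases Jak2 (0.65), Jak3 (0.50) and Tyk2 (0.46) were higher, and Jak1 (-0.04) was not called. Of 30 STAT3-induced genes 8 were higher and 7 lower, among them Batf3 at 1.77 and Hif1a at -1.65. Socs2 (1.12), Socs7 (0.86) and Cish (0.85) were higher and Socs6 (-0.85) lower. The counts were 8 higher and 8 lower for STAT3-induced genes and 4 and 1 for SOCS genes without the VEGF array that stands apart. None of these list genes was called with the 5′ covariate, where 0.885% of all probe sets were.

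**Figure D4:**
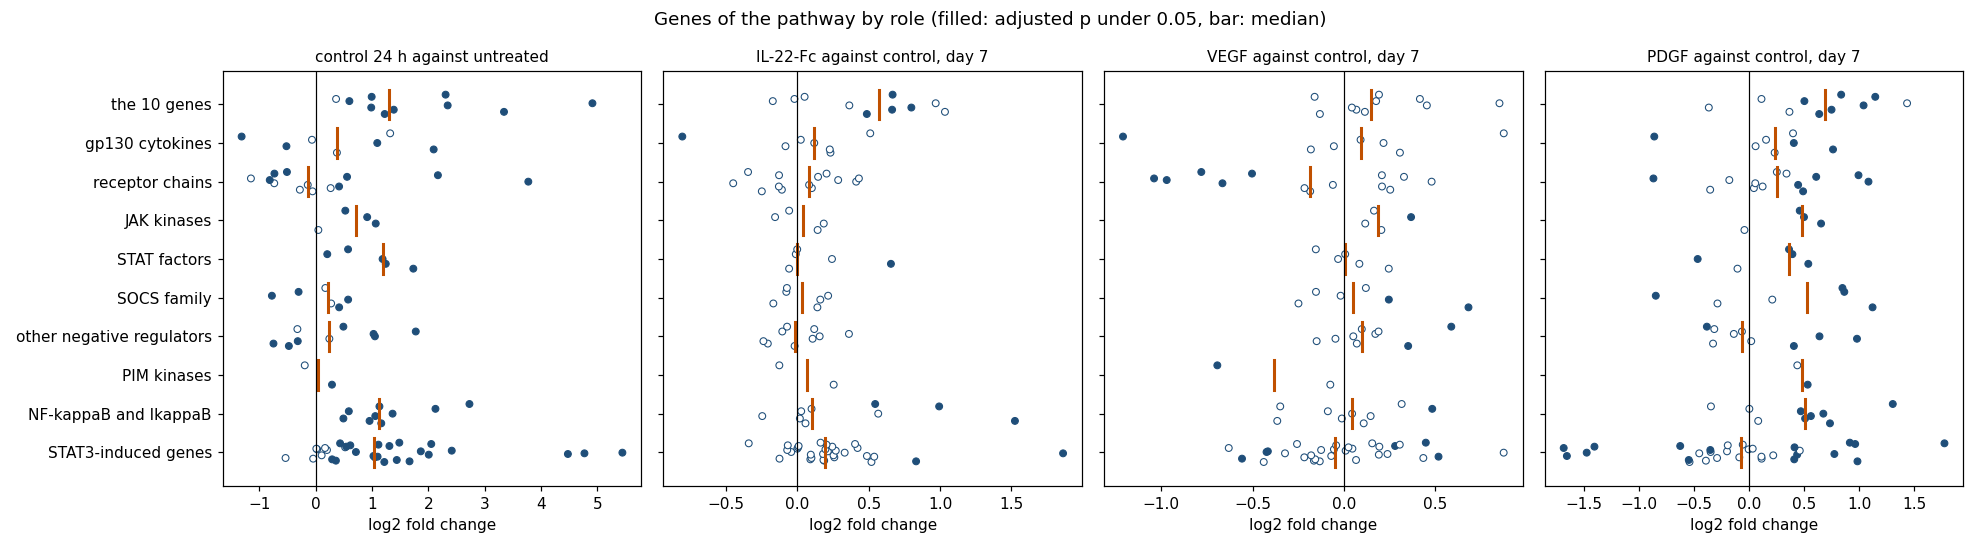
Log2 fold change (x axis, own scale in each panel) of the 10 genes and of the measured genes of 9 lists by role (y axis) in 4 comparisons, filled where the adjusted p was under 0.05, with the list median as a vertical bar. In 24 h control wounds all 9 NF-κB and IκB genes were higher than in untreated skin, and with IL-22-Fc at day 7 3 of them were higher than in control wounds.

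The treatments were also compared with each other at day 7. IL-22-Fc and PDGF differed at 3 of the 10 genes (38.1% of all probe sets). Osmr was higher with IL-22-Fc by 1.16 (SE 0.21, adjusted p = 0.000146), while Pim1 was lower by 1.10 (SE 0.15, adjusted p = 4.29e-06) and Il6st by 0.68 (SE 0.09, adjusted p = 8e-06). The arrays of the 2 groups did not overlap in any of these 3 genes, and the share of all probe sets without overlap was not counted. For Stat3, Socs1 and Bcl3, which rose with both proteins, IL-22-Fc minus PDGF was -0.15 (95% interval -0.39 to 0.09), -0.09 (-0.45 to 0.28) and -0.17 (-0.52 to 0.18). Without the VEGF array 5 genes were called, against 38.6% of all probe sets. Socs3 was then higher with IL-22-Fc by 0.67 (adjusted p = 0.00538) and Osm lower by 0.68 (adjusted p = 0.0183) in addition. With the 5′ covariate 0 were called, where 0.706% of all probe sets were. The median SE over all probe sets went from 0.12 to 0.38 in that fit.

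IL-22-Fc and VEGF differed at 5 of the 10 genes at day 7 (22.9% of all probe sets). Osmr (0.75), Stat3 (0.62), Socs1 (0.60) and Bcl3 (0.47) were higher with IL-22-Fc and Il6st lower (-0.35), with adjusted p from 7.19e-05 to 0.0198. The Bcl3 call was lost without IL-22-Fc replicate 1 or VEGF replicate 2 or 3 (adjusted p up to 0.0627). Without VEGF replicate 1 8 genes were called, against 23.5% of all probe sets, and Socs3 (1.45), Il6 (1.43) and Pim1 (0.33) were the ones added. Il6 was at 0.12 with that array included. The unmoderated t statistic called 2 of the 10, losing Osmr, Socs1 and Bcl3, and with a 1.5-fold threshold 3 remained, without Il6st and Bcl3. The 5′ probe sets differed by -0.40 for Actb and 0.26 for Gapdh (exact permutation p = 0.0159 and 0.0397). Among the marker lists, basal keratinocyte means were 9.24 to 9.47 with IL-22-Fc and 8.58 to 8.98 with VEGF. Endothelial means were 6.22 to 6.56 and 7.37 to 7.80. The part of these cells in the differences was not tested.

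VEGF and PDGF differed at 5 genes (39.7% of all probe sets called, 22.7% lower), all lower with VEGF. Pim1 was lower by 1.31 on the log2 scale, Stat3 by 0.77, Socs1 by 0.68, Bcl3 by 0.64 and Il6st by 0.33, with adjusted p from 4.2e-07 to 0.00847. The Il6st call was lost without PDGF replicate 1 (adjusted p = 0.0733). Without VEGF replicate 1 Socs3 (-0.78), Osm (-0.995) and Il6 (-1.89) were called in addition, 8 in all against 38.4% of all probe sets. The 5′ probe sets of Gapdh and Actb were higher with VEGF than with PDGF by 1.39 and 0.93 (exact permutation p = 0.0179 for both). With the 5′ level as a covariate 0 of the 10 genes were called, where 0.397% of all probe sets were. The median SE over all probe sets went from 0.12 to 0.40 in that fit. The unmoderated t statistic called 3 of the 10.

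At 24 h none of the 10 genes was called for any treatment against control. For IL-22-Fc 0.111% of all probe sets were called, for VEGF 0.135% and for PDGF 1.89%. At an unadjusted p under 0.05 there were 0 of the 10 genes for IL-22-Fc, 3 for VEGF (Stat3 -0.26, Socs3 -0.46, Osm -0.63) and 2 for PDGF (Socs3 0.49, Il6st -0.25), and the unmoderated t statistic called 0 in each. With IL-22-Fc the difference from control was -0.00 for Stat3 (95% interval -0.24 to 0.24), 0.01 for Osmr (-0.24 to 0.25), -0.10 for Bcl3 (-0.51 to 0.31), -0.16 for Socs1 (-0.81 to 0.50) and -0.23 for Socs3 (-0.61 to 0.14). The spread was wide in the IL-22-Fc arrays, whose Il6 levels at 24 h were 7.29, 6.17, 7.21, 9.22 and 8.62.

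Between the treatments at 24 h Socs3 was called against PDGF. It was at 11.39, 11.49, 11.55, 11.46 and 11.37 with PDGF, at 10.45, 10.12, 10.79, 11.20 and 11.05 with IL-22-Fc and at 9.94, 10.50, 10.78, 10.75 and 10.54 with VEGF. Every PDGF array was above all others at 24 h. Socs3 was lower by 0.95 with VEGF than with PDGF (SE 0.17, adjusted p = 0.00114, with 9.15% of all probe sets called) and by 0.73 with IL-22-Fc than with PDGF (SE 0.17, adjusted p = 0.011, with 7.49% called). It was the only one of the 10 genes called in either comparison, a count near the share of all probe sets. Osm, Il6 and Il6st were also at an unadjusted p under 0.05 in both. Their differences were -0.69, -0.84 and 0.19 for VEGF minus PDGF and -0.64, -1.03 and 0.24 for IL-22-Fc minus PDGF. The Socs3 call for IL-22-Fc against PDGF was lost in the fit over all 42 arrays and with the unmoderated t statistic. It was also lost with the 5′ covariate, where 2.75% of all probe sets were called. A control probe set and markers of other cells differed in these comparisons too. The 5′ probe set of Gapdh was lower than with PDGF by 0.31 for VEGF and by 0.45 for IL-22-Fc (exact permutation p = 0.00794 for both, the smallest possible). That of Actb differed by -0.13 for VEGF and -0.18 for IL-22-Fc (exact permutation p = 0.127 and 0.0556). The mean level of the neutrophil markers was 8.27 with PDGF, 7.98 with VEGF and 7.87 with IL-22-Fc, and all 6 skeletal muscle markers were lower with PDGF in both comparisons. Their part in the Socs3 differences was not tested. Between IL-22-Fc and VEGF none of the 10 genes was called at 24 h, where 0.687% of all probe sets were, with 1 gene at an unadjusted p under 0.05 (Stat3, 0.25) and 0 with the unmoderated t statistic.

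Whether a treatment effect differed between day 7 and 24 h was tested as an interaction over the 37 wound arrays. For PDGF 4 of the 10 genes were called, a count near the 32.3% of all probe sets called in either direction. All 4 had a higher difference from control at day 7, Pim1 by 1.34 (adjusted p = 0.000937), Bcl3 by 0.83 (adjusted p = 0.0168), Stat3 by 0.77 (adjusted p = 0.000345) and Il6st by 0.75 (adjusted p = 6.22e-06). The call for Bcl3 was lost without PDGF replicate 1 at day 7 (adjusted p = 0.0525). With the 5′ covariate none of the 4 was called, where 0.687% of all probe sets were. The same 4 were called higher, and Osmr lower (-0.47, adjusted p = 0.0168), without the VEGF array that stands apart, where 32.7% of all probe sets were called.

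For IL-22-Fc the count in the interaction was 0, where 1.69% of all probe sets were called. At an unadjusted p under 0.05 there were 5 of the 10 genes, a threshold for which no share of all probe sets is given. The differences between the times were 0.79 for Osmr (adjusted p = 0.0647), 0.49 for Stat3 (adjusted p = 0.0943), 0.76 for Bcl3 (adjusted p = 0.119), 1.27 for Socs3 (adjusted p = 0.146) and 0.82 for Socs1 (adjusted p = 0.287). Without the VEGF array that stands apart 3 were called, against 2.09% of all probe sets. They were Osmr (adjusted p = 0.00139), Socs3 (adjusted p = 0.00331) and Stat3 (adjusted p = 0.0493). Leaving out IL-22-Fc replicate 4 or 5 or control replicate 3 at 24 h gave 2, 1 and 1 calls. The calls of IL-22-Fc at day 7 and their absence at 24 h are therefore not shown to differ with all arrays in the fit. For VEGF 0 of the 10 genes were called (8.85% of all probe sets), with 2 at an unadjusted p under 0.05.

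The order of the 9 group means shows how each gene was placed. For Socs3 it ran from PDGF at 24 h (11.45) through control (10.96), IL-22-Fc (10.72) and VEGF (10.50) at 24 h to IL-22-Fc (10.27), PDGF (9.60), VEGF (9.35) and control (9.24) at day 7 and untreated skin (7.62). Neighbours whose arrays did not overlap were PDGF and control at 24 h, IL-22-Fc and PDGF at day 7, and control at day 7 and untreated skin. For Stat3 the 6 highest groups, all 24 h groups with PDGF and IL-22-Fc at day 7, overlapped one by one from 10.75 down to 10.45, and a gap separated them from control (9.97) and VEGF (9.84) at day 7. Socs1 had the same 6 groups on top, and the neighbours IL-22-Fc (6.06) and VEGF (5.46) at day 7 did not overlap. Osmr had IL-22-Fc as its only day 7 group among the 24 h levels and PDGF at day 7 (9.15) in the last place, overlapping untreated skin (9.28). Pim1 had PDGF (9.14) as its only day 7 group among the 24 h levels. Il6st had IL-22-Fc at day 7 (9.82) in the last place, overlapping control at day 7.

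Il6 and Socs3 were closely related across arrays. Of all probe sets with a symbol, Socs3 had the highest correlation with Il6 over the 42 arrays (Pearson r = 0.93), with r = 0.90 after the group means were removed. These were 0.95 and 0.66 without the VEGF array that stands apart. The arrays share treatment and time, so r is a description of these arrays. Between Lif and Il6 r was 0.62 over all arrays and 0.85 within groups, and without the VEGF array 0.55 and 0.38, so the within-group value rested on that array. The Lif levels outside it ran from 4.73 to 5.72.

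**Figure D5:**
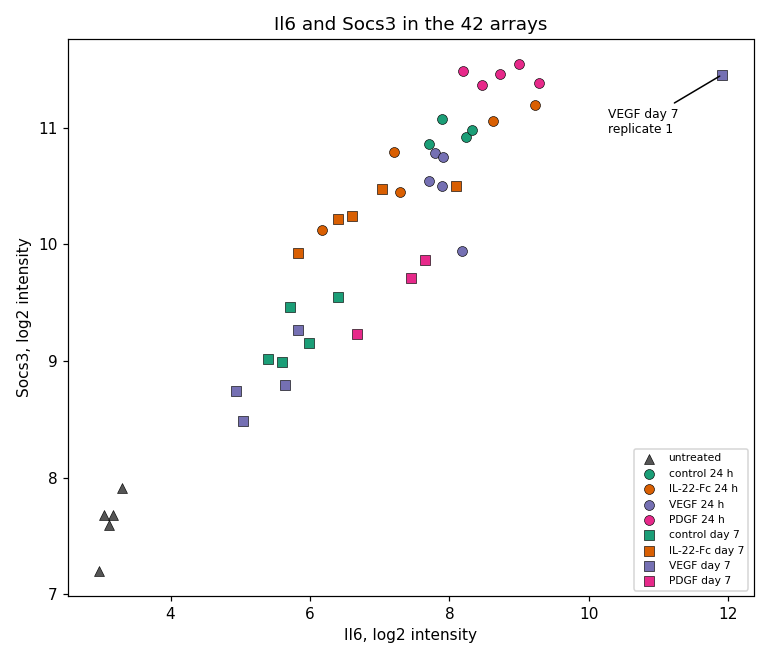
Log2 intensity of Socs3 (y axis) against Il6 (x axis) in the 42 arrays, with colour for treatment and shape for time. The points run from untreated skin, with Il6 between 2.98 and 3.30, to the VEGF array of day 7 at 11.91, and Pearson r was 0.93.

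The other genes closest to each member over the 42 arrays were as follows. For Stat3 they were Bcl3 (r = 0.94), the AP-1 factor Junb (0.93) and the receptor adaptor Myd88 (0.93). Socs3 was closest to Cxcl3 (0.95), Il1b (0.95) and Cxcl1 (0.94), a cytokine and 2 chemokines that attract neutrophils. Osmr was closest to the lactate transporter Slc16a1 (0.91), to Ampd3 (0.91) and to Nfkbiz (0.89). Osm was closest to Jak2 (0.93), the chemokine Ccl4 (0.93) and the adhesion molecule Icam1 (0.93).

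Bcl3 was closest to Myd88 (0.96), Cd300lf (0.95) and Gpr35 (0.94), Pim1 to the NF-κB subunit Rela (0.94), Carhsp1 (0.92) and Ppp1r15a (0.91), and Socs1 to Slc9a3r1 (0.90), AA467197 (0.86) and Bcl3 (0.86). After Socs3, Il6 was closest to Il4ra (0.93) and Cxcl3 (0.92). Il6st was closest to Relb (0.88), Cds2 (0.86) and Hyou1 (0.86), and here r fell to between 0.13 and 0.24 once the group means were removed. For Lif the closest were Tnfrsf9 (0.80), Il11 (0.75) and Tafa2 (0.72), and without the VEGF array that stands apart these were 0.50, 0.37 and 0.32.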

How the data were processed

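Gene expression in skin was measured on Affymetrix Mouse430V2 arrays. Intensity values were normalized by the authors with RMA, who retained the most variable probe set of each Entrez gene. They were deposited on a linear scale for 20672 probe sets (lowest 3.85, median 50.8). RMA and limma are named in the submitters' processing notes without versions. Logarithms to base 2 were taken before any test, where the plan had assumed log2 values. Symbols came from the platform annotation, with 17928 probe sets carrying 1 symbol, 79 several and 2665 none.

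All probe sets were fitted with limma 3.58.1 in R 4.3.3, with the Benjamini and Hochberg adjustment over all 20672 and a call at an adjusted p under 0.05. Day 7 comparisons used the 18 day 7 arrays, 24 h comparisons the 19 arrays of 24 h, contrasts with untreated skin and between control times all 42, and effect differences the 37 wound arrays, which makes 18 comparisons. Members and lists were chosen with earlier results of these data known. Named are all 10 members, the 3 probe sets most correlated with each, and from each list of 92 genes in all (85 measured) up to 4 called genes with the smallest and up to 2 with the largest adjusted p. Where a sentence gives fewer, the rest are in the counts. The labels pair no arrays and name no batch or separate cultures, so p-values measure the spread between these arrays, and the number of arrays limits the precision.

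Alternatives were other sets of arrays, trended and robust fits, array weights, median and quantile scaling, filters on low level or spread, log2 of the value plus 32, a 1.5-fold threshold, the 5′ level as a covariate, unmoderated t statistics (the test that the methods give for data other than arrays), each array of the groups compared left out in turn and, added after seeing the data, fits without 1 VEGF array and of the compared groups alone. The fit was tested on simulated data. Promoter sequences were those of RefSeq for GRCm38.p6. Figures were drawn with matplotlib 3.10.9 in Python 3.11.15.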

Additional observations from a re-analysis of the deposited data

Results flagged for a closer look

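In 80 pairs of a gene and a group with 4 to 10 arrays, 8 held an array whose gap to its nearest neighbour was a larger share of the group's range than Dixon's 95% critical value. Chance gives about 1 such pair in 20, and genes of the same array are not independent. VEGF replicate 1 at day 7 accounts for 6 of them, with gaps of 0.937 of the range for Il6st, 0.903 for Lif, 0.873 for Il6, 0.859 for Osmr, 0.737 for Socs3 and 0.713 for Bcl3, each time as the highest array. Il6st had its highest 24 h control level in replicate 3 (10.80, gap 0.905), a small distance from 10.65 to 10.67 in the others. Osmr had its lowest untreated level in replicate 5 (8.69, gap 0.827), against 9.35 to 9.49.

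The PDGF effect differed between day 7 and 24 h by the interaction test for Stat3 (0.77, adjusted p = 0.000345), Il6st (0.75, adjusted p = 6.22e-06), Pim1 (1.34, adjusted p = 0.000937) and Bcl3 (0.83, adjusted p = 0.0168). By the same test 32.3% of all probe sets were called in either direction. None of Stat3, Il6st, Pim1 and Bcl3 was called with the 5′ level as a covariate, where 0.687% of all probe sets were.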

How the results depend on the processing

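No value that was called changed its direction under any alternative. Over single genes, comparisons and settings, 3948 results kept their side of the threshold, 52 lost a call and 54 gained one. The 5′ covariate gave 0 calls where there had been 6 for PDGF against control, 3 for IL-22-Fc against PDGF and 5 for VEGF against PDGF at day 7, 1 for IL-22-Fc against PDGF at 24 h and 4 for the PDGF effect difference. In the same order, these fits called 0.885%, 0.706%, 0.397%, 2.75% and 0.687% of all probe sets. Adding the 1.5-fold threshold gave 3 and the unmoderated t statistic 2 for IL-22-Fc against VEGF at day 7 (5), and that statistic gave 3 for VEGF against PDGF at day 7 (5). Without VEGF replicate 1 there were 5 for IL-22-Fc against PDGF at day 7 (3) and 3 for the IL-22-Fc effect difference (0), where 38.6% and 2.09% of all probe sets were called. The compared groups alone gave 5 for IL-22-Fc against PDGF at day 7, and at 24 h 1 for PDGF against control (0) and 3 for VEGF against PDGF (1). Array weights gave at 24 h 2 for PDGF against control, 3 for IL-22-Fc against PDGF (1) and 2 for VEGF against PDGF, and 1 for the IL-22-Fc effect difference. For IL-22-Fc against PDGF at 24 h, all 42 arrays and the unmoderated t statistic gave 0, and leaving out probe sets below the median of mean level or adding 32 before the log2 gave 2. Leaving out probe sets below the median of mean level or of interquartile range gave 1 for the IL-22-Fc effect difference. The cause of these changes was not tested.

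Leaving out 1 array of the groups compared at a time gave 4 to 8 calls for IL-22-Fc against VEGF and for VEGF against PDGF at day 7, 1 to 3 for IL-22-Fc against PDGF at 24 h and 0 to 2 for the IL-22-Fc effect difference. The 4 calls of IL-22-Fc against control at day 7 stayed 4 in each of these fits and were 5 without VEGF replicate 1, an array outside that comparison. No paired analysis was possible because the labels give the arrays no replicate numbers and those used here only name arrays.

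Il6 in untreated skin is limited by the background of the arrays. With 3 PDGF arrays at day 7, the smallest exact p against 5 others is 0.0179.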
